A study of Mus musculus with 6 samples.

Results

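The 10 genes described here encode the VEGF ligands and receptors (*Vegfa*, *Vegfb*, *Vegfc*, *Kdr*, *Flt1*, and *Flt4*) and the angiopoietins with their TIE receptors (*Angpt1*, *Angpt2*, *Tek*, and *Tie1*). They were chosen by gene symbol, and all 10 were found among the 23997 genes of the deposited expression table. The table comes from bulk RNA-Seq of the ductus arteriosus (DA), the fetal artery between the pulmonary artery and the aorta, dissected from C57BL/6 mouse embryos at E17.5. It holds 3 wild-type libraries (WT, from littermates according to the series title) and 3 libraries of the genotype Prdm6f/f; SM22-Cre, whose titles call them KO. In the latter, both copies of *Prdm6* carry loxP sites and the *SM22* (*Tagln*) promoter drives Cre-recombinase in smooth muscle cells (SMCs). The endothelial cells in which most of the receptors described here are made are therefore not the main cells targeted by Cre. The sources used here do not say whether the WT embryos carried Cre, or whether several embryos were pooled for a library. The labels do not say that the libraries came from separate embryos, and the general statement in the methods on mice per group does not name these libraries. A p value then measures only the spread between these 6 libraries.

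VEGF ligands are secreted dimers that bind receptor tyrosine kinases on endothelial cells. VEGFR2 (encoded by *Kdr*) passes on most of the signal for endothelial growth and sprouting, VEGFR1 (*Flt1*) binds VEGF-A tightly and acts largely as a decoy, and VEGFR3 (*Flt4*) with its ligand VEGF-C is best known for the growth of lymphatic vessels. Angiopoietin 1, made by mural and other mesenchymal cells, activates the endothelial receptor TIE2 (*Tek*) and stabilizes vessels, whereas angiopoietin 2 is released by endothelial cells and blocks or weakly activates the same receptor. TIE1 (*Tie1*) has no ligand of its own kind that is well established and modulates TIE2. In the DA, the endothelium lines a muscular wall that contracts and closes after birth. In GRCm38 (GENCODE), the members with the results of most weight here are *Vegfb* (chr19:6982473-6987651, minus strand), *Kdr* (chr5:75932827-75978458, minus strand), *Angpt1* (chr15:42424723-42676977, minus strand), and *Tek* (chr4:94739289-94874976, plus strand). FPKM is counted over the exons of each gene.

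Expression is given as FPKM, which is scaled for transcript length, so that levels can be compared between genes. Between libraries the scaling was not equal by every measure. Summed FPKM over all genes ran from 412183 (WT library 1) to 818503 (KO library 2), whereas the upper quartile ran from 10.4 (WT library 2) to 10.8 (KO library 1). Levels and sums are compared between libraries with this limit. Relative depth was estimated from the most frequent ratio of FPKM between a library and WT library 1 among genes of very low FPKM in both. These were 89 to 258 genes for each library compared. The estimates lay between 0.927 and 1.19 times the depth of WT library 1, and the total depth is unknown. Of 3506 abundant genes (mean of 20 FPKM or more), 34 to 61 per library stood at 0, so that an exact 0 can be a failed estimate. *Prdm6* itself was at 41.7, 48.4, and 19.8 FPKM in WT and at 48.6, 27.1, and 15.4 FPKM in KO, so that it did not separate the groups, and the part of the gene that is removed is not given in the sources used here. KO library 0 held both *Xist* (81.0 FPKM) and the Y-linked *Ddx3y* (26.4 FPKM), and the values of the members that it moved most are also given without it. WT library 0 and KO library 1 held *Xist* (67.0 and 82.8 FPKM) with *Ddx3y* at 0 and 0.383 FPKM. WT libraries 1 and 2 and KO library 2 held *Ddx3y* (24.0, 23.4, and 20.1 FPKM) with *Xist* at 0.0530, 0.0431, and 0.0472 FPKM. Both groups thus mixed the sexes, which the comparison did not model. WT library 1 and KO library 2 had the highest summed FPKM of 9 heart muscle markers (8 tested, 4 with a positive value), 1245 and 1317 against 53.6 to 410 in the other libraries, and *Tnnt2* (cardiac troponin T) was at 181 and 140 FPKM in these libraries and at 12.9 to 142 FPKM in the others.

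The groups were compared with limma on log2(FPKM + 0.1) over the 12955 genes whose mean reached 1 FPKM, which included all 10 members. A fold change on this scale understates the change of a gene with low FPKM. With a Benjamini-Hochberg adjusted p under 0.05 from limma, 0 of the 10 members were called, against 1 of all genes tested (0.00772%). At an unadjusted p under 0.05, 1 of the 10 members passed, against 8.28% of all genes tested. Every KO library lay above every WT library for *Angpt1* and *Tek*, that is 2 of 10 members against 8.21% of all genes, and below every WT library for *Vegfb*, 1 of 10 members against 7.84%. The median log2 fold change was 0.30 over the 10 members and 0.07 over all genes tested. A positive value was found for 6 of the 10 members, against 55.6% of all genes tested. The median of the members was 0.15 to 0.42 with each library left out in turn, lowest without WT library 1 and highest without KO library 0, and 0.10 without WT library 1 and KO library 2 together.

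By mean FPKM in WT, *Angpt2* was the most abundant member (67.4 ± 3.88, SD, n = 3), followed by *Tek*, *Tie1*, *Vegfa*, *Vegfb*, *Flt1*, *Kdr*, *Vegfc*, *Angpt1*, and *Flt4* (3.99 ± 1.11). Among neighbours in this order, only *Angpt2* and *Tek*, and *Vegfb* and *Flt1*, had ranges over the 3 WT libraries that did not overlap. Angiopoietin 2 and both TIE receptors stood at the 93.2nd, 90.4th, and 85.5th percentile, respectively, of tested genes by mean WT level. In KO the order was *Angpt2*, *Tek*, *Tie1*, *Vegfa*, *Kdr*, *Angpt1*, *Flt1*, *Flt4*, *Vegfb*, and *Vegfc*, and only *Tek* and *Tie1* were separated neighbours. *Vegfb* stood at the 77.6th percentile of tested genes in WT and at the 49.6th in KO, and *Angpt1* at the 27.2nd and the 69.0th.

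**Figure D1:**
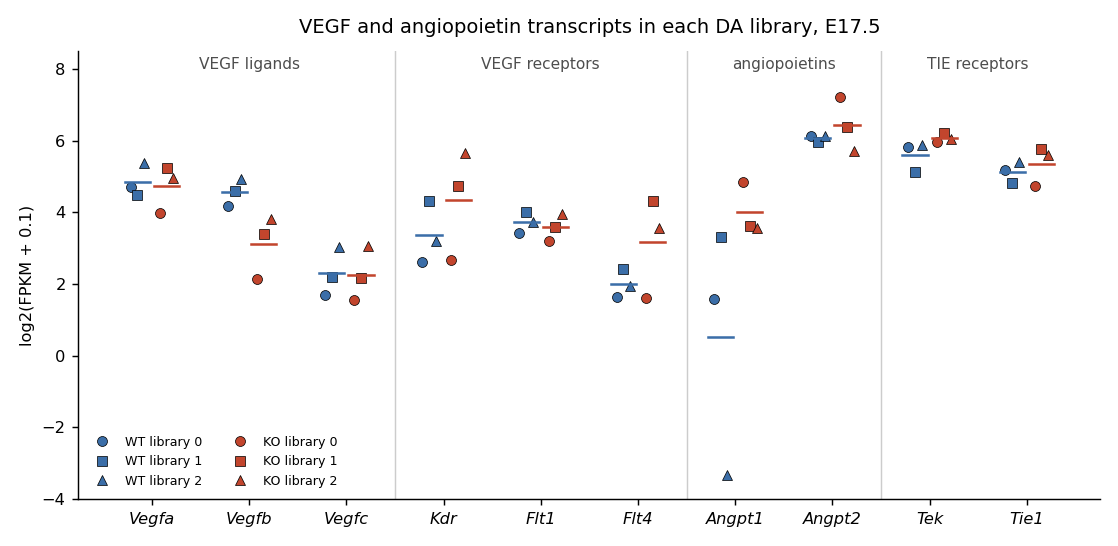
Levels of the 10 members as log2(FPKM + 0.1) on the y axis, with genes on the x axis, WT libraries in blue, KO libraries in red, marker shape for the library number, and a bar for the mean of each group. *Vegfb* is lower and *Angpt1* and *Tek* are higher in every KO library than in every WT library, and *Angpt1* is listed at 0 FPKM in WT library 2.

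*Vegfb* encodes VEGF-B, a ligand of VEGFR1 known mostly from heart and skeletal muscle. It was at 17.8, 24.1, and 30.7 FPKM in WT libraries 0, 1, and 2 and at 4.33, 10.5, and 14.0 FPKM in KO libraries 0, 1, and 2. All 3 KO values were below the lowest WT value, and KO library 0 was the lowest of the 6. The log2 fold change was -1.45 (standard error 0.45, 95% interval from -2.49 to -0.40, unadjusted p = 0.0131, adjusted p = 0.54 from limma). The two-sided exact permutation test gave p = 0.1, the smallest that 3 libraries against 3 allow. Of the tested genes, 396 had a lower log2 fold change. Leaving out each library in turn gave values from -1.79 to -0.96, the latter without KO library 0.

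The other ligands of this family overlapped between the groups. *Vegfa*, which encodes the main ligand of VEGFR2, was at 26.0, 22.5, and 41.5 FPKM in WT and at 15.8, 37.8, and 31.0 FPKM in KO, with a log2 fold change of -0.13 (95% interval from -0.996 to 0.74, adjusted p = 0.922 from limma). The highest value of *Vegfa* was in a WT library and the lowest in a KO library, and the ranges overlapped widely. *Vegfc*, which encodes a ligand of VEGFR3, was at 3.10, 4.52, and 8.12 FPKM in WT and at 2.83, 4.41, and 8.28 FPKM in KO, with a log2 fold change of -0.05 (95% interval from -1.35 to 1.26, adjusted p = 0.984 from limma). These intervals still hold changes of more than 1 on the log2 scale for *Vegfc*, so that neither gene is shown to be the same in both groups. Without KO library 0 the log2 fold changes turned to 0.24 for *Vegfa* and 0.31 for *Vegfc*, and without WT library 2 to 0.13 and 0.32.

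The promoter of *Vegfb* is shown because this ligand was the member with the lowest log2 fold change. RefSeq promoters (GRCm38.p6, the assembly of mm10, 250 bases before to 50 bases after the gene's start, 5′ to 3′) were matched by symbol for 8 of the 10 members. They were searched on both strands for the ETS core CCGGAA, the hypoxia response core ACGTG or GCGTG, the GATA site AGATAA, and the TATA box TATAAA, none of which overlapped in the 3 promoters printed. Among 32817 promoters of the same length, 14.9%, 43.8%, 11.2%, and 13.6% held these motifs, respectively. The *Vegfb* promoter lies on the minus strand at chr19:6987602-6987901 and is 75.3% G and C, where the median promoter has 52.7%. Capitals mark its 2 matches to GCGTG, which start at positions -237 (on the other strand) and -81, counted so that -1 is the last base before the start.
Vegfb promoter: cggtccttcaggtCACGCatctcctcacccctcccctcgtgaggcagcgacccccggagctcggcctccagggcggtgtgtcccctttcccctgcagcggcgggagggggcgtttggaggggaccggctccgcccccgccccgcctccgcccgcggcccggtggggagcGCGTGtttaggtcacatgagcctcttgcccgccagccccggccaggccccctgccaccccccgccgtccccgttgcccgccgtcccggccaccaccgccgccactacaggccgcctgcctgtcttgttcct

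Among the VEGF receptors, *Kdr* had the widest range of the members listed above 0 in every library. Its level was 6.01, 19.7, and 9.13 FPKM in WT libraries 0, 1, and 2 and 6.22, 26.6, and 49.99 FPKM in the KO libraries, an 8.31-fold span over the 6 libraries. KO libraries 1 and 2 lay above all WT libraries, whereas KO library 0 lay close to the lowest WT library. The log2 fold change was 0.97 (standard error 0.76, 95% interval from -0.80 to 2.75, unadjusted p = 0.239, adjusted p = 0.72 from limma), and the two-sided exact permutation test gave p = 0.4. The value was 1.82 without KO library 0 and 0.32 without KO library 2, so that single KO libraries moved it by more than 1.5 times in both directions.

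*Flt4* followed a like order. It was at 3.04, 5.21, and 3.73 FPKM in WT and at 2.98, 20.01, and 11.6 FPKM in KO, with KO libraries 1 and 2 above and KO library 0 below all WT libraries. The log2 fold change was 1.17 (standard error 0.69, 95% interval from -0.42 to 2.76, adjusted p = 0.663 from limma), 1.94 without KO library 0 and 0.59 without KO library 1. In contrast, *Flt1* was at 10.7, 15.9, and 13.3 FPKM in WT and at 9.12, 12.0, and 15.5 FPKM in KO, the narrowest range of any member (1.74-fold over the 6 libraries). Its log2 fold change was -0.13 (95% interval from -0.83 to 0.56, adjusted p = 0.893 from limma) and turned to 0.06 without KO library 0. Markers of lymphatic endothelium, where *Flt4* is also made, summed to between 31.2 and 187 FPKM in WT and between 25.6 and 248 FPKM in KO, with 0 of the 6 listed at 0 in any library. Of these 6 markers, 5 had a positive log2 fold change (median 1.17, beside 1.17 for *Flt4*), 1 had an unadjusted p under 0.05 (*Reln*, 1.96, chosen after its values were seen), and 0 were without overlap. Of all genes tested, 55.6% had a positive value and 8.28% an unadjusted p under 0.05 from limma. Without overlap, 8.21% of all genes tested were higher and 7.84% lower in KO. *Lyve1*, a hyaluronan receptor of these cells, was at 8.40, 27.2, and 54.4 FPKM in WT and at 7.06, 59.2, and 42.7 FPKM in KO. *Prox1*, the transcription factor that defines lymphatic cells, was at 0.654, 6.91, and 16.7 FPKM in WT and at 2.28, 17.3, and 15.5 FPKM in KO, and its part in the *Flt4* values was not tested.

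The *Kdr* promoter is shown as the one of the 8 with a match to CCGGAA. ETS factors active in endothelial cells bind this form of the ETS core. Other forms of the core were not searched for, so the other promoters are not shown to lack one. The *Kdr* promoter lies on the minus strand at chr5:75978406-75978705. Capitals mark the ETS core at position -153 (on the other strand) and GCGTG at positions -131 and -89.
Kdr promoter: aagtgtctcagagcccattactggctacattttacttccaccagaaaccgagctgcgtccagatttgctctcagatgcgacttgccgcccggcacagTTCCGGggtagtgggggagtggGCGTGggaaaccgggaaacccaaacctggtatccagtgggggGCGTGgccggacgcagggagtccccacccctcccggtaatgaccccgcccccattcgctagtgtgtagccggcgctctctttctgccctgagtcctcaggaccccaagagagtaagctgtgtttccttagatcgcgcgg

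*Angpt1* was the member with the highest log2 fold change. It was at 2.90, 9.84, and 0 FPKM in WT libraries 0, 1, and 2 and at 28.5, 12.1, and 11.6 FPKM in the KO libraries. Every KO library was above every WT library, with KO library 0 far above the other KO libraries. The log2 fold change was 3.47 (standard error 1.52, 95% interval from -0.048 to 6.998, unadjusted p = 0.0525, adjusted p = 0.601 from limma), and the two-sided exact permutation test gave p = 0.1. Its size rests on WT library 2, where *Angpt1* was listed at 0. Without that library it was 1.55, and with all libraries it was 2.28 at a pseudocount of 1 and 4.59 at a pseudocount of 0.01. An antisense gene, Gm17473, shares 737 exonic bases with *Angpt1* in GENCODE and is not among the genes of the table, and reads of both would be counted together if strand was not used.

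*Angpt2* was at 69.8, 63.0, and 69.5 FPKM in WT and at 150, 84.1, and 52.7 FPKM in KO. The WT libraries lay close together, whereas the KO libraries reached both above and below them. The log2 fold change was 0.37 (standard error 0.35, 95% interval from -0.43 to 1.18, adjusted p = 0.746 from limma), -0.02 without KO library 0 and 0.74 without KO library 2. *Angpt2* lies on the opposite strand within *Mcph1*, with which it shares 0 exonic bases, and *Mcph1* itself had between 5.40 and 7.83 FPKM.

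*Tek* was at 56.6, 35.0, and 58.5 FPKM in WT and at 62.9, 74.7, and 66.2 FPKM in KO. Every KO library was above every WT library, with WT library 1 well below the other 5. The log2 fold change was 0.47 (standard error 0.23, 95% interval from -0.06 to 1.01, unadjusted p = 0.0755, adjusted p = 0.624 from limma), and the two-sided exact permutation test gave p = 0.1. With each library left out in turn it was 0.23 to 0.60, with the lowest value without WT library 1. *Tie1* was at 36.3, 27.9, and 42.0 FPKM in WT and at 26.3, 54.4, and 48.4 FPKM in KO, with a log2 fold change of 0.23 (95% interval from -0.48 to 0.95, adjusted p = 0.812 from limma). KO libraries 1 and 2 were above all WT libraries for *Tie1*, and KO library 0 was the lowest of the 6. The value of *Tie1* was 0.55 without KO library 0, 0.03 without KO library 1, 0.12 without KO library 2, 0.07 without WT library 1, and 0.37 without WT library 2.

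The *Tek* promoter is shown because this receptor was higher in every KO library. It lies on the plus strand at chr4:94739039-94739338, holds 3 CG pairs against 31 in the *Vegfb* promoter, and has 1 match to AGATAA, which starts at position 37 after the start and is in capitals.
Tek promoter: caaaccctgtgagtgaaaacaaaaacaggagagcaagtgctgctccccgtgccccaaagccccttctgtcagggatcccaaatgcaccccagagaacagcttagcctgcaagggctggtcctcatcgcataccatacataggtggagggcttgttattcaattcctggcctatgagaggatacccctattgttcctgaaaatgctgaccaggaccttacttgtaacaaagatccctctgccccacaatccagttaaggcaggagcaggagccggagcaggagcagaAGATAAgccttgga

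KO library 0 stood apart in these genes. It had the lowest of the 6 values for 6 members (*Vegfa*, *Vegfb*, *Vegfc*, *Flt1*, *Flt4*, and *Tie1*) and the highest for *Angpt1* and *Angpt2*. With KO library 0 left out, 6 of the 10 members did not overlap between the groups (*Angpt1*, *Kdr*, *Flt4*, *Tek*, and *Tie1* higher and *Vegfb* lower), against 26.7% of all genes tested in the same fit, and 0 members were called by limma. This fit is set apart here because KO library 0 was at an extreme for many of these genes. The 6 of 10 follows partly from that choice, whereas the 26.7% does not, so it is no support for a difference. With all libraries, 3 of 10 did not overlap, beside 8.21% of all genes tested that were higher and 7.84% that were lower in KO without overlap.

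**Figure D2:**
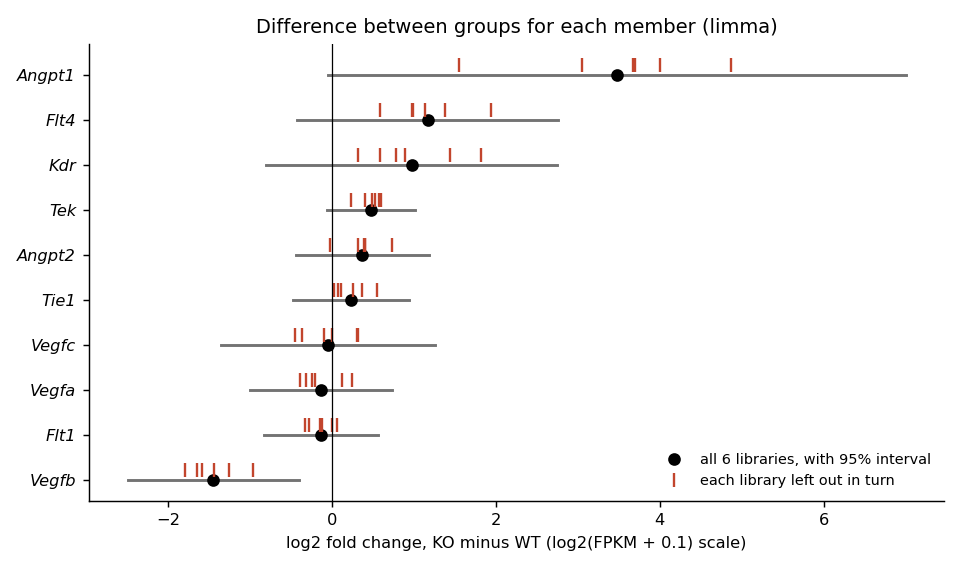
Log2 fold change of each member (KO minus WT, log2(FPKM + 0.1) scale, x axis) from limma, with its 95% interval as a grey line, and the value with each library left out in turn as red ticks. Only the interval of *Vegfb* lies wholly on 1 side of 0, and the ticks of *Angpt1* run from 1.55 to 4.87.

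Ratios between members within a library do not change with a scaling factor per library, and 6 of them were compared with two-sided exact permutation tests, whose smallest p is 0.1. Only the ratio of *Vegfa* to *Vegfb* did not overlap between the groups. On the log2 scale it was 0.54, -0.10, and 0.43 in WT and 1.84, 1.84, and 1.14 in KO, a difference of 1.32 (exact permutation p = 0.1, adjusted over the 6 ratios p = 0.6), and it stayed between 1.12 and 1.55 with each library left out. As a share of the summed FPKM of 5 VEGF ligands (*Vegfa*, *Vegfb*, *Vegfc*, *Pgf*, and *Vegfd*), *Vegfb* made up 27.7%, 30.8%, and 33.4% in WT and 8.38%, 12.2%, and 18.0% in KO. The sum itself overlapped between the groups, with 64.5, 78.2, and 91.8 FPKM in WT and 51.7, 85.5, and 78.0 FPKM in KO.

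The balance between the receptors overlapped between the groups. The log2 ratio of *Flt1* to *Kdr* was 0.81, -0.31, and 0.54 in WT and 0.54, -1.14, and -1.68 in KO (difference -1.11, exact permutation p = 0.3), a difference that was -1.76 without KO library 0 and -0.65 without KO library 2. *Flt1* thus made up 54.1%, 39.0%, and 50.8% of the summed VEGF receptors in WT, 49.8% in KO library 0, and 20.5% and 20.1% in KO libraries 1 and 2. The log2 ratio of *Tie1* to *Tek* differed by -0.24 (exact permutation p = 0.7), of *Flt4* to *Kdr* by 0.20 (exact permutation p = 0.8), and of *Vegfc* to *Vegfa* by 0.08 (exact permutation p = 1). The log2 ratio of *Angpt2* to *Angpt1* was 4.54, 2.66, and 9.44 in WT, the last with *Angpt1* listed at 0, and 2.39, 2.79, and 2.17 in KO (exact permutation p = 0.2). *Angpt1* was 16.0%, 12.6%, and 18.1% of the summed angiopoietins in KO, against 3.99%, 13.5%, and 0% in WT, where library 1 was within the KO range.

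**Figure D3:**
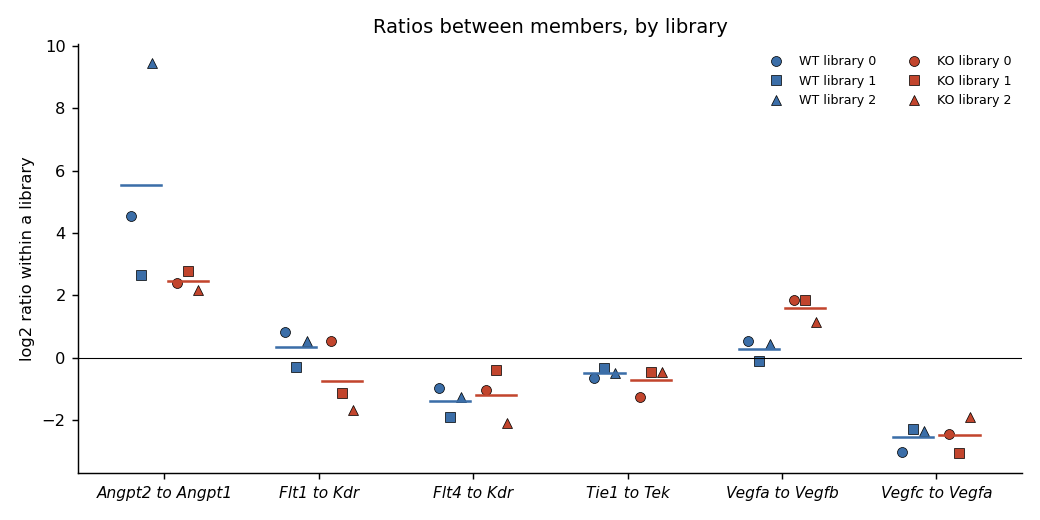
Log2 ratios between pairs of members within each library (y axis), with the 6 ratios on the x axis, WT in blue, KO in red, and a bar for the mean of each group. The ratio of *Vegfa* to *Vegfb* is 1.14 to 1.84 in KO and at most 0.54 in WT, and the other 5 ratios overlap.

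In a bulk tissue, fewer cells of a type and less RNA per cell cannot be told apart, so the endothelial members were also set against other endothelial transcripts of the same library. Of 22 endothelial markers, 14 had a positive and 8 a negative log2 fold change (positive in 55.6% of all genes tested), and 0 were called by limma. Without overlap, 4 were higher in KO, against 8.21% of all genes tested. They were *Cldn5*, *Sox17*, *Sox18*, and *Sox7*, chosen after their values were seen. An unadjusted p under 0.05 from limma was reached by 4 of the 22, against 8.28% of all genes tested. The median log2 fold change of the 22 markers was 0.41. Their summed FPKM was 673 to 1059 in WT and 1017 to 1304 in KO, with 0 of the 22 listed at 0 in any library. *Pecam1* (CD31) was at 140, 98.2, and 194 FPKM in WT and at 186, 235, and 164 FPKM in KO. *Cdh5* (VE-cadherin) was at 59.3, 66.7, and 43.2 FPKM in WT and at 39.9, 101, and 106 FPKM in KO. Neither marker separated the groups.

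Relative to the mean log2 level of these 22 markers, *Tek* differed between the groups by 0.06 (exact permutation p = 1), a value that took the opposite sign without WT library 1 (-0.13) and without KO library 0 (-0.08). *Flt1* was the only 1 of the 6 endothelial members that did not overlap on this scale, at -0.63, -0.11, and -0.71 in WT and -1.03, -1.25, and -0.81 in KO, a difference of -0.55 (exact permutation p = 0.1, adjusted over the 6 members p = 0.6). The groups overlapped at a pseudocount of 1 (-0.48, exact permutation p = 0.2) and relative to the median marker (-0.29, exact permutation p = 0.5). With each library left out the difference of *Flt1* was between -0.66 and -0.36, the latter without WT library 1. *Kdr* differed by 0.56 (exact permutation p = 0.7), *Flt4* by 0.76 (exact permutation p = 0.4), *Tie1* by -0.18 (exact permutation p = 0.4), and *Angpt2* by -0.04 (exact permutation p = 1). Without KO library 0 these differences were 1.21 for *Kdr*, 1.33 for *Flt4*, -0.05 for *Tie1*, and -0.63 for *Angpt2*, without KO library 1 that of *Flt4* was 0.29, and without KO library 2 that of *Kdr* was -0.012.

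Markers of other cells also differed in level between the libraries, with 0 called by limma in each list. For all genes tested, 8.21% were higher and 7.84% lower in KO without overlap, and 8.28% had an unadjusted p under 0.05 from limma. A positive log2 fold change was found for 55.6% of them. All 9 smooth muscle markers had a negative log2 fold change (median -1.13), 5 of them without overlap, and their summed FPKM was 2485 to 5728 in WT and 894 to 2427 in KO. *Myh11* (smooth muscle myosin) had a log2 fold change of -1.81 and *Tagln* (SM22, whose promoter drives Cre) of -1.13, both without overlap. Of 8 Schwann cell markers, 7 had a positive value (median 2.26), with 4 without overlap and sums of 12.6 to 37.9 FPKM in WT and 46.6 to 147 FPKM in KO. All 6 tested neuron markers had a positive value (median 2.43), with 3 without overlap and sums of 8.05 to 23.1 FPKM in WT and 40.6 to 60.5 FPKM in KO. The summed erythroid markers were 3863 to 7583 FPKM in WT and 4284 to 24359 FPKM in KO, with libraries KO 0 and KO 1 the highest, and between 1 and 2 of 8 markers listed at 0. Summed pericyte markers (461 to 1108 FPKM in WT, 343 to 1032 FPKM in KO) and fibroblast markers (3333 to 5465 FPKM in WT, 2789 to 5272 FPKM in KO), both from cells that can make angiopoietin 1, overlapped between the groups. Of 7 pericyte markers, 6 had a negative value (median -0.19), 2 had an unadjusted p under 0.05, and 2 were lower without overlap, namely *Kcnj8* (-1.09) and *Abcc9* (-0.60), subunits of a potassium channel of mural cells, chosen after their values were seen. *Pdgfrb* (-0.09) and *Rgs5* (-0.12) overlapped. Of 8 fibroblast markers, 4 had a positive and 4 a negative value (median 0.02), 2 had an unadjusted p under 0.05, and 1 was higher without overlap, namely *Lum* (lumican, 1.16, chosen after its values were seen), whereas *Pdgfra* (0.16) overlapped. The sums also overlapped for macrophage (33.1 to 135 FPKM in WT, 27.8 to 98.4 FPKM in KO), epithelial (37.7 to 111 and 60.7 to 84.8 FPKM), and mesothelial markers (23.4 to 128 and 33.6 to 131 FPKM). The part of these cells in the values of the 10 members was not tested. For *Vegfb*, the log2 fold change was -1.78 without the 2 libraries that were highest in heart muscle markers.

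Across the 6 libraries, the members did not vary as a single block. These correlations are a description over 6 points that share dissection, group, and scaling, and the libraries of a group pull them together. The highest Pearson correlations of log2(FPKM + 0.1) were those of *Vegfa* with *Tie1* (r = 0.87) and of *Kdr* with *Flt4* (r = 0.86), which were 0.96 and 0.83 after the mean of each group was removed. *Angpt2* ran opposite to *Flt1* (r = -0.85) and *Vegfb* (r = -0.81), and KO library 0 was at the extreme of all 3 genes. *Angpt2* also followed the mean level of the erythroid markers (r = 0.94), and *Vegfb* ran opposite to it (r = -0.91). The part of blood in either gene was not tested.

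Among 9112 genes outside the 10 members with a mean FPKM of at least 5, those whose levels were most like *Kdr* over the 6 libraries were *Nrp1* (r = 0.995), *Ivns1abp* (r = 0.993), and *Cd36* (r = 0.991). *Nrp1*, which encodes the co-receptor neuropilin 1, was at 81.9, 109, and 85.7 FPKM in WT and at 77.7, 117, and 140 FPKM in KO, in the same rising order as *Kdr* but for WT library 0 and KO library 0, which changed places. *Tek* was most like *Rapgef5* (r = 0.998), *Mall* (r = 0.966), and *Klhl24* (r = 0.961), *Vegfa* was most like *Ppp1r13b* (r = 0.986), *Nelfcd* (r = 0.983), and *Casp6* (r = 0.983), and *Angpt1* was most like *Pcca* (r = 0.996), *Ankrd13a* (r = 0.996), and *Cep68* (r = 0.994). With 6 points, high values are common, and 87 genes reached r = 0.9 with *Kdr*, 97 with *Vegfa*, 25 with *Tek*, and 540 with *Angpt1*, whose order is set largely by the 0 in WT library 2.

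Of the other ligands and co-receptors of the pathway, 4 of 5 were tested and all 4 had a positive log2 fold change, with 0 called by limma, 0 at an unadjusted p under 0.05, and 0 without overlap. The shares of all genes tested were 55.6% with a positive value and 8.28% with an unadjusted p under 0.05 from limma. Without overlap, they were 8.21% higher and 7.84% lower in KO, so that 4 genes say little. *Nrp2*, the neuropilin of VEGF-C signalling, was at 8.004, 14.9, and 19.7 FPKM in WT and at 15.5, 28.5, and 43.0 FPKM in KO (log2 fold change 0.999, SE of 0.45, unadjusted p = 0.0601, adjusted p = 0.611 from limma). *Nrp1* had a log2 fold change of 0.25 (adjusted p = 0.759 from limma). Dropping single libraries gave 0.64 to 1.39 (lowest without WT library 0, and 0.66 without KO library 2) for *Nrp2* and 0.06 to 0.48 for *Nrp1* (lowest without KO library 2, highest without KO library 0). *Vegfd*, listed under its older symbol *Figf*, was at 10.2, 24.8, and 7.94 FPKM in WT and at 23.1, 21.6, and 20.9 FPKM in KO (log2 fold change 0.79, adjusted p = 0.64 from limma), with values of 0.46 without WT library 2 and 1.27 without WT library 1. *Pgf*, placental growth factor, was at 7.26, 2.34, and 3.63 FPKM in WT and at 5.56, 11.3, and 3.75 FPKM in KO (log2 fold change 0.63, and 0.20 to 1.06 with each library left out), and *Angpt4* was listed at 0 in all libraries but KO library 0 (1.39 FPKM).

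In each list of further pathway genes, 0 genes were called by limma. The counts below stand beside 8.21% of all genes tested that were higher and 7.84% that were lower without overlap. An unadjusted p under 0.05 from limma was reached by 8.28% of all genes tested, and 55.6% had a positive log2 fold change. Of 12 tested genes of ligand processing and receptor modulation, 8 had a positive value (median 0.31), 0 had an unadjusted p under 0.05, and 1 did not overlap. That was *Itgav*, the integrin αv subunit, at 41.6, 41.5, and 38.1 FPKM in WT and at 50.3, 47.0, and 47.3 FPKM in KO (log2 fold change 0.25, adjusted p = 0.67 from limma). Of 33 signal transducers, 17 had a positive and 16 a negative value (median 0.03), 3 had an unadjusted p under 0.05, and 4 did not overlap, 2 in each direction. *Hspb1*, the heat shock protein HSP27 that is phosphorylated downstream of VEGFR2, was at 121, 79.4, and 66.9 FPKM in WT and at 34.1, 46.6, and 47.2 FPKM in KO (log2 fold change -1.03, standard error 0.26, adjusted p = 0.463 from limma). *Yes1*, a Src family kinase, was at 15.7, 13.9, and 7.61 FPKM in WT and at 23.7, 22.1, and 24.2 FPKM in KO (log2 fold change 0.97, adjusted p = 0.545 from limma). *Mapkapk2*, the kinase that phosphorylates HSP27, had a log2 fold change of 0.46 (adjusted p = 0.668 from limma), in the opposite direction to *Hspb1*.

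Of 12 tested VEGF-responsive and tip cell genes, 6 had a positive and 6 a negative value (median 0.02), where 55.6% of all genes tested were positive. An unadjusted p under 0.05 from limma was reached by 1 (8.28% of all genes tested). The groups did not overlap for 2, both higher in KO (8.21% of all genes tested). *Ets1*, an ETS transcription factor of the endothelium, was at 12.0, 12.5, and 7.90 FPKM in WT and at 28.5, 30.3, and 21.4 FPKM in KO (log2 fold change 1.31, SE of 0.27, unadjusted p = 0.00144, adjusted p = 0.407 from limma). *Pdgfb*, the endothelial ligand that recruits mural cells, was at 2.99, 2.91, and 0 FPKM in WT and at 6.05, 6.57, and 3.54 FPKM in KO (adjusted p = 0.649 from limma). Among 4 tested angiopoietin-like genes, which encode relatives that do not bind TIE2, 3 had a positive value (median 0.07), 0 had an unadjusted p under 0.05, and 0 were without overlap. The largest values there were those of *Angptl2* (-0.52, adjusted p = 0.702 from limma) and *Angptl7* (0.45, adjusted p = 0.845 from limma).

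Low oxygen raises *Vegfa* through the hypoxia-inducible factors, and 15 of these factors and their responsive genes were tested. Of these, 10 had a positive and 5 a negative value (median 0.11), where 55.6% of all genes tested were positive. An unadjusted p under 0.05 from limma was reached by 2 (8.28% of all genes tested). The groups did not overlap for 2, in opposite directions (8.21% of all genes tested higher and 7.84% lower). *Egln3*, a prolyl hydroxylase that marks the factors for removal, was at 39.1, 18.1, and 28.7 FPKM in WT and at 8.75, 11.2, and 10.7 FPKM in KO (log2 fold change -1.42, SE of 0.31, unadjusted p = 0.00222, adjusted p = 0.414 from limma). *Ndrg1*, which low oxygen induces in many cells, was at 19.0, 13.3, and 16.7 FPKM in WT and at 31.2, 48.2, and 31.4 FPKM in KO (log2 fold change 1.15, SE of 0.25, unadjusted p = 0.00206, adjusted p = 0.414 from limma). Both are known as hypoxia-induced transcripts, and their log2 fold changes had opposite signs. These 2 genes were chosen after their values were seen, and the part of low oxygen in the levels of *Vegfa* was not tested.

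**Figure D4:**
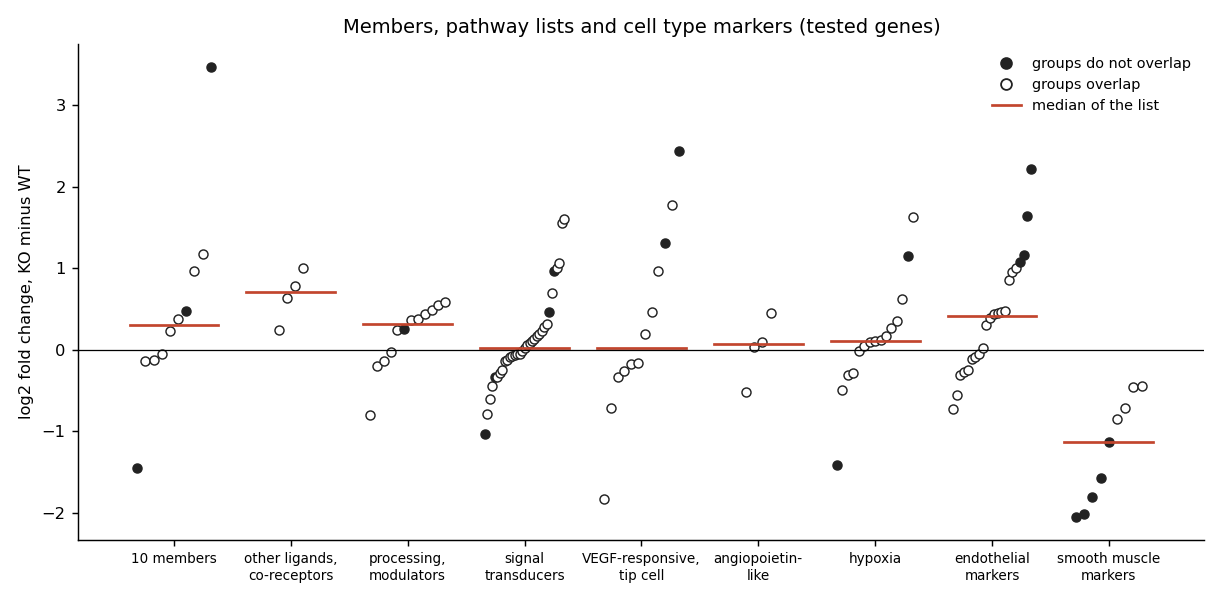
Log2 fold change (KO minus WT, y axis) of each tested gene of the 10 members, of the 6 lists of other pathway genes, and of the endothelial and smooth muscle markers (x axis). Filled points are genes whose groups do not overlap, and red lines are list medians, from -1.13 for smooth muscle markers to 0.71 for the 4 other ligands and co-receptors.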

How the data were processed

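Bulk RNA-Seq was analysed for 3 WT and 3 Prdm6f/f; SM22-Cre libraries. The deposited values are FPKM, which the authors computed with Cufflinks and Cuffdiff from TopHat2 alignments (genome mm10) of reads filtered by length and quality. Tool versions, strandedness, and total depth are not given in the sources used here. All 6 columns were matched to samples by title, and 0 were left over.

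The members and all gene lists were chosen with earlier results of these data known. Genes whose mean reached 1 FPKM were compared with limma 3.58.1 (R 4.3.3, moderated with a mean-variance trend) on log2(FPKM + 0.1), with Benjamini-Hochberg adjustment over all genes tested and a threshold of 0.05. The procedure was also run on simulated data, and its outcome there is not given here. Ratios used two-sided exact permutation tests. The genes named were the members, the other ligands and co-receptors, defining markers, *Prdm6*, up to 3 genes per further list with the largest log2 fold change among those without overlap (or 2 where none was), and the 3 genes most correlated with *Kdr*, *Vegfa*, *Tek*, and *Angpt1*. *Xist* and *Ddx3y* were added to check the libraries. Other pseudocounts, filters, scalings, and variance models, a replicate block, and leaving out each library were tried. Leaving out both libraries highest in heart muscle markers was added after seeing the data. Gene overlaps came from GENCODE vM21 and promoters from RefSeq (GRCm38.p6). The symbols of 3 list genes were matched through RefSeq synonyms.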

Additional observations from a re-analysis of the deposited data

How the results depend on the processing

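No member passed an adjusted p of 0.05 from limma under any alternative, and the lowest was 0.34 (*Vegfb*, with the replicate block). The same-numbered libraries were not shown to be paired, since their deviations from the group means correlated at 0.122, -0.076, and -0.009, and the replicate block left 1 gene called. Each group has 3 libraries, so no exact permutation p could go below 0.1. *Vegfb*, *Angpt1*, and *Tek* were also without overlap after upper quartile scaling and after quantile normalization, the alternatives that could have changed this.

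Of all genes, 2 were called without the mean-variance trend, 2 without moderation, and 2 without WT library 1 and KO library 2 (the highest in heart muscle markers), against 1, and 1 to 2 with each library left out in turn. Leaving out each library gave 3 to 6 members without overlap. The 6 came without KO library 0, where 26.7% of all genes tested did not overlap. The same fits gave medians of -0.055 to 0.17 for signal transducers, -0.13 to 0.42 for VEGF-responsive and tip cell genes, -0.20 to 0.29 for angiopoietin-like genes, 0.14 to 0.36 for ligand processing and receptor modulators, and -0.043 to 0.18 for hypoxia genes (lowest without WT library 2). Log2 fold changes were -0.38 to 0.24 for *Vegfa*, -0.45 to 0.32 for *Vegfc*, -0.32 to 0.058 for *Flt1*, and -0.018 to 0.74 for *Angpt2*. The log2 differences were -0.19 to 0.65 for *Flt4* to *Kdr*, -0.37 to 0.028 for *Tie1* to *Tek*, -0.20 to 0.38 for *Vegfc* to *Vegfa*, and, relative to endothelial markers, -0.012 to 1.21 for *Kdr*, -0.13 to 0.24 for *Tek*, and -0.63 to 0.40 for *Angpt2*.

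Without the 2 libraries highest in heart muscle markers, the signal transducer median was 0.20, *Tie1* -0.045, *Vegfc* to *Vegfa* -0.072, and, relative to endothelial markers, *Tek* -0.034 and *Angpt2* 0.40. Quantile normalization gave -0.066 for *Vegfc* to *Vegfa* and 0.10 for *Angpt2* relative to endothelial markers, which was 0.016 at a pseudocount of 1. Relative to the median endothelial marker, *Tie1* was 0.081 and *Angpt2* 0.22. The cause of these sign changes was not tested.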
